A study of Mus musculus with 148 samples.

Results

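Macrophage regulatory cells (Mregs) were the 449 cells that the study's cell annotation assigned to its macrophage cluster Mac Gpnmb, out of 24020 annotated cells, 23425 of them immune. They made up 1.92% of the immune cells and 25.1% of the 1791 macrophages. All mice were female PA-GFP C57BL/6 mice, whose cells become GFP-positive once a chosen region is illuminated. EO771 cells, a mouse breast cancer line, had been labeled with tdTomato and injected into a mammary gland at 8 weeks of age, and tumors were resected 3 weeks later in the mice followed for lung metastasis. The 63 samples of 27 mice were control lungs (3), lungs of tumor-bearing mice before metastasis (Pre-MET, 3), relapse-free lungs (6), primary tumors (4), distal normal tissue of lungs with metastases (14), tissue containing a metastasis (13), photoactivated metastasis cores (13) and photoactivated invasive margins (7).

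All samples other than cores and margins were sorted as CD31-negative CD45-positive cells, and in relapse-free mice 6 and 7 photoactivated and non-activated gates were sorted as well. Cores and margins were sorted as CD31-negative GFP-positive cells, with CD45 added to the gate for the core of mouse 17. Tissue and gate therefore change together when a core or margin is set against a metastasis sample, and their effects cannot be told apart. Cores and margins were labeled in the same manner and could be compared more directly. EO771 is a single tumor line in a single strain, so every value below describes that model.

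TREM2 is a surface receptor of macrophages that binds lipids and lipoproteins such as APOE and signals through the adaptor TYROBP. Macrophages of lipid-rich or damaged tissue, including those described as lipid-associated, commonly express Trem2 together with Gpnmb, a transmembrane glycoprotein of endosomes and lysosomes, Cd63, a tetraspanin of late endosomes, and genes for lysosomal enzymes. Lysosomal genes as a class can be induced by the MiT/TFE transcription factors (Mitf, Tfeb, Tfe3, Tfec), which bind E-box sequences with the core CACGTG.

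Because several lysosomal genes ranked highest in these cells, the 250 bases upstream of the RefSeq starts (GRCm38.p6, the assembly behind mm10) were searched for CACGTG, which reads the same on both strands. It was present in 10 of 44 promoters (22.7%) of lysosomal genes, of which 38 of 51 had an entry, in 3 of 20 promoters (15%) of lipid-associated macrophage genes (18 of 22 with an entry), in 0 of 36 promoters of type I interferon (IFN) response genes (29 of 38) and in 6.02% of all 32851 promoters. The longer palindrome TCACGTGA, each match of which also contains CACGTG, was present in 11.4% of the lysosomal and 0.785% of all promoters. A pair of lysosomal promoters with the motif and those of the leading Mreg markers are shown on the strand of the gene, with CACGTG in capitals. Ctsd (chr7:142387828-142388077, minus strand) encodes the protease cathepsin D and Lamp1 (chr8:13158911-13159160, plus strand) a lysosomal membrane protein, while Gpnmb (chr6:49036268-49036517, plus strand) and Trem2 (chr17:48346151-48346400, plus strand) are the markers.
Ctsd: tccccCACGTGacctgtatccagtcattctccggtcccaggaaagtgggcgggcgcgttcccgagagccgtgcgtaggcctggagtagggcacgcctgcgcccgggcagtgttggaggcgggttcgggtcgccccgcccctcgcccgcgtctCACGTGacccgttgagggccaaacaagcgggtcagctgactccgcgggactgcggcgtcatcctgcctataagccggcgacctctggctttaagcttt
Lamp1: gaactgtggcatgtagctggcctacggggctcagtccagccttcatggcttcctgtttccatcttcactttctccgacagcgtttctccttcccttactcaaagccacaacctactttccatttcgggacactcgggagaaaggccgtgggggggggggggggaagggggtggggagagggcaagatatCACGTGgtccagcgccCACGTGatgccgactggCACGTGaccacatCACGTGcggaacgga
Gpnmb: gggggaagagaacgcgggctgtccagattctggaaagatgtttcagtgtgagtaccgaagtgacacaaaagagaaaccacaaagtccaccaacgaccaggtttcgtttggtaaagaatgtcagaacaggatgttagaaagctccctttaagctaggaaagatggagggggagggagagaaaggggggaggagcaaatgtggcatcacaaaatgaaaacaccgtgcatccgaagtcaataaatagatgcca
Trem2: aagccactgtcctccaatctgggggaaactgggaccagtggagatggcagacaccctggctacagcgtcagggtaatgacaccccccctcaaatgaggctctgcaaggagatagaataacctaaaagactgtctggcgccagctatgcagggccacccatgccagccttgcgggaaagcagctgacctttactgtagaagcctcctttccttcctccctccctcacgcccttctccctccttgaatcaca
The Ctsd window held 2 matches, beginning 245 and 98 bases before the start, and the Lamp1 window 4, while the Gpnmb and Trem2 windows held none. Ctsd and Lamp1 were picked for their matches. The windows of Ctss, Psap (2 promoters), Cd63, Apoe (3 promoters), Syngr1, Spp1 (2 promoters), Plin2, Creg1 and Atp6v1e1, not shown, held none. Ctsb and Fabp5 had no entry. The shares by list use no expression value of Mregs, and whether MiT/TFE factors act in these cells was not tested. A match describes these letters only and is not a mapped binding site.

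Mregs carried a median of 1726 UMIs (500 to 26148) and 762 genes per cell. They were found in 46 samples of 21 mice and on 78 plates, and no well name occurred on more than 1 plate. Expression was analyzed on raw UMIs summed per mouse and tissue with at least 10 Mregs, which gave 14 sums from 9 mice (7 metastases, 3 cores and 4 margins) and held 349 cells, 77.7% of all Mregs. The sums contained 15936 to 186256 UMIs (median 50951), and levels are given as UMIs per 1000000 UMIs of the sum (CPM). The largest single cell contributed 3.42% to 26.1% of the UMIs of a sum, the most in the margin of mouse 17. No doublet caller was run.

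The label was checked against its markers. Gpnmb was present in 65.7% of Mregs, Trem2 in 47.2% and Cd63 in 65.7%, against 0.482%, 0.292% and 0.730% of 6846 T cells, which should lack them (median 996.5 UMIs per cell, against 1726 in Mregs). After thinning every cell to 500 UMIs, the shares were 46.5%, 19.8% and 41.6% in Mregs and 0.263%, 0.0730% and 0.307% in T cells. All 3 markers were detected in 31.4% of Mregs and none of them in 69 cells (15.4%). In Mac Isg20, a neighboring macrophage subset of the annotation, the shares were 12.6%, 14.6% and 25.5% (494 cells, median 1333.5 UMIs), and in Mac Cd81 1.47%, 16.6% and 39.4% (409 cells, median 2327 UMIs). Among the 26 subpopulations with a sum, the mean level in Mregs ranked first for Gpnmb, Trem2 and Cd63 and also for Syngr1, Apoe, Fabp5, Pdpn, Ctsd, Ctsb, Ctss, Plin2, Gdf15 and Lgals3. For each of these genes the range over the sums overlapped that of the next subset. Cd63, for example, was at 565 to 2625 CPM in Mregs and 677 to 1458 CPM in migratory dendritic cells (3 sums). For Spp1, Cd9 and Fabp4 the mean level in Mregs ranked 3rd, and for Il7r 8th. It ranked 2nd, below the Mac Cd9 subset, for Ctsk (290 against 351 CPM) and, more clearly, for Lpl (207 against 1456 CPM) and Atp6v0d2 (210 against 1189 CPM), genes of lipid and lysosomal function. The clusters were made from these same genes, so the ranks are a description. Cd63 shares sequence with the pseudogene Cd63-ps, and Ftl1 and Fth1 share sequence with pseudogenes, so that their levels are uncertain.

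Markers of other cell types were also summed in the 14 sums. The summed level of T cell markers was at most 96.5 CPM, of B cell markers 115 CPM, of DC markers 17.3 CPM and of epithelial tumor markers 5.37 CPM. Cd3e, Trac, Ncr1, Ms4a1, Flt3 and Epcam were at 0 in every sum, as were Krt79 and Ear1 of alveolar macrophages. The whole alveolar list, 8 of 9 genes measured, ran from 188 to 2671 CPM and includes Cd9, a gene that Mregs themselves express (886 ± 407 CPM, SD, n = 14), and Chil3, which reached 1767 CPM in the margin of mouse 33 and 1468 CPM in the metastasis of mouse 26. Monocyte markers summed to between 230 and 1641 CPM. Erythroid markers reached 524 CPM and markers of lung epithelium and stroma 320 CPM, both in the margin of mouse 17. Neutrophil markers summed to between 69.1 and 2085 CPM, the most in the margin of mouse 17, where S100a8 was at 1330 CPM in Mregs and 2376 CPM in T cells of the same sample. S100a8 was thus higher in those T cells, which should lack it, than in Mregs. In the metastasis of mouse 30 the order was reversed, with 1408 CPM in Mregs and 1004 CPM in T cells. The part of S100a8 in other results was not tested.

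The core of mouse 30 stood apart from the other sums. It was the shallowest, with 10 cells and 15936 UMIs, and contained only 4 Gpnmb UMIs, in 3 cells, so that Gpnmb was at 251 CPM against 1066 to 4874 CPM in the other 13 sums. Its lysosomal genes summed to the lowest value (34011 CPM, against 42454 to 77214 CPM elsewhere) and its Spp1 to the highest (7656 CPM). Fold changes of single genes against cores are given below with and without this sum.

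Mregs were most frequent in metastatic regions and rare in the other tissues. They were 0 of 2064 immune cells in control lungs, which allows a share of up to 0.145%, and 0 of 1406 in Pre-MET lungs, which allows up to 0.213%. Relapse-free lungs contained 6 Mregs among 5156 immune cells and primary tumors 7 among 1557, but in these cells the label rested on few marker UMIs (6 of Gpnmb, 1 of Trem2 and 2 of Cd63 in relapse-free lungs, and 28, 5 and 9 in primary tumors). Distal normal tissue had 19 of 3974 (9 of 14 samples), metastases 171 of 4010 (11 of 13 samples), cores 98 of 3395 (12 of 13) and margins 148 of 1863 (7 of 7). These limits cover counting error only.

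The mean frequency out of immune cells was 4.41% ± 4.02 (SD, n = 13) in metastases, 3.34% ± 2.67 (SD, n = 13) in cores, 17.7% ± 26.5 (SD, n = 7) in margins and 0.945% ± 2.07 (SD, n = 14) in distal normal tissue. The distal value rested largely on mouse 23 (7.92%), without which the mean was 0.409% ± 0.506 (SD, n = 13), and the median of all 14 samples was 0.257%. The margins were very uneven. Of the margin of mouse 32, 34 of 55 immune cells were Mregs (61.8%), and of that of mouse 33, 80 of 159 (50.3%), while the other 5 margins ranged from 0.685% to 3.47%. In samples with at least 5 macrophages, Mregs were 65.6% ± 26.2 of macrophages in margins (SD, n = 7), 30.7% ± 24.1 in cores (SD, n = 12), 28.4% ± 13.9 in metastases (SD, n = 11), 16.1% ± 16.7 in distal normal tissue (SD, n = 7), 3.37% ± 2.46 in primary tumors (SD, n = 4) and 1.78% ± 1.74 in relapse-free lungs (SD, n = 5). In the margins, 6 of 7 samples were at 50% or above and that of mouse 28 was at 16.7%, from 6 macrophages. Those of mice 26 and 31 rested on 8 macrophages each. The margins of mice 36, 17, 32 and 33 rested on 16, 18, 35 and 94.

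**Figure D1:**
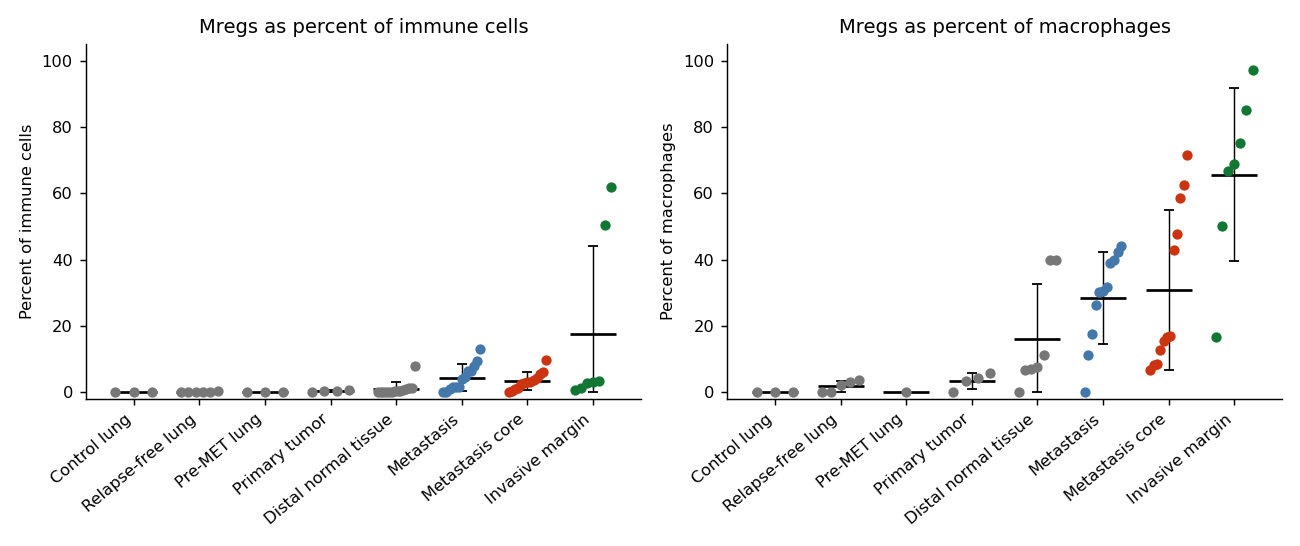
Mregs per sample as percent of immune cells (left) and of macrophages in samples with at least 5 macrophages (right). Points are samples, horizontal lines the mean and bars the SD, drawn no lower than 0. The margins of mice 32 (61.8%) and 33 (50.3%) lie far above all other samples on the left, and 6 of 7 margins are at 50% or above on the right.

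Frequencies were compared within mice by exact two-sided sign-flip permutation tests, with Benjamini-Hochberg adjustment over 4 comparisons. Mregs were a larger part of immune cells in metastases than in distal normal tissue of the same mice (4.41% against 0.977%, a difference of 3.43 ± 2.95 percentage points, SD), higher in 10 of 13 mice, lower in 2 and equal in 1 (exact permutation p = 0.00195, adjusted p = 0.00781). Both tissues were sorted with the same gate. Out of macrophages, the means were 34.1% and 12.1% in the 6 mice with at least 5 macrophages in both tissues, higher in 5 of 6, which did not pass the test (exact permutation p = 0.0625, adjusted p = 0.125).

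The margin and the core of the same mice were then compared, to ask whether Mregs were concentrated at the boundary. Out of macrophages, Mregs averaged 55.4% in margins and 28.0% in cores of 5 mice, a difference of 27.4 ± 30.5 percentage points (SD) with 4 of 5 mice higher in the margin (exact permutation p = 0.188, adjusted p = 0.25). A design of 5 pairs cannot give a p below 0.0625. Without pairing, over 7 margins and 12 cores, the difference was 34.9 percentage points (permutation p = 0.0113, not adjusted). The 5 mice gave samples to both groups, which this permutation took as independent, so that its p is a description only. The core of mouse 17, sorted with CD45 in the gate, was 1 of the 5 pairs. Out of immune cells, margins averaged 12.2% and cores 3.37% in 6 mice (exact permutation p = 0.781), and without mouse 32 the difference was -1.74 percentage points. Unpaired, with the same limit, it was 14.3 percentage points (permutation p = 0.172). The core of mouse 32 contained no macrophage among 77 immune cells.

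The few Mregs outside the metastatic regions were pooled over samples, with exact Poisson intervals that cover counting error only. In the 19 cells of distal normal tissue, 8 of them from mouse 23, Gpnmb was at 913 CPM (620 to 1296) and Trem2 at 1207 CPM (866 to 1638), and Apoe reached 10631 CPM. In the 7 cells of primary tumors, Gpnmb was at 535 CPM (355 to 773), Trem2 at 95.5 CPM (31.0 to 223) and Apoe at 1929 CPM (1571 to 2344). In the 6 cells of relapse-free lungs, Gpnmb was at 286 CPM (105 to 623) from 6 UMIs, Trem2 had 1 UMI and Spp1 none among 20970 UMIs (0 to 176 CPM). Trem2 thus rested on at most 5 UMIs in either of the last 2 tissues, and no comparison between tissues was made.

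Among the markers, Gpnmb was at 1420, 3472, 2167 and 3922 CPM in the margins of mice 17, 32, 33 and 36, at 251, 4874 and 3846 CPM in the cores of mice 30, 31 and 36, and at 1066 (lowest), 1774 (median) and 3603 CPM (highest) in the 7 metastases. The groups overlapped. Trem2 ranged from 415 to 790 CPM in margins, from 565 to 1170 CPM in cores and from 362 to 848 CPM in metastases, and was among the steadier genes of these cells. Cd63 ranged from 1261 to 2625, from 565 to 2567 and from 1090 to 1462 CPM. In the margin against the core, the log2 fold change was -0.16 ± 0.63 (SE) for Gpnmb, -0.43 ± 0.46 (SE) for Trem2 and 0.36 ± 0.46 (SE) for Cd63, none of them called. Without the core of mouse 30 they were -0.69, -0.61 and 0.00, so that the positive value of Cd63 rested on that sum.

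Apoe, the lipoprotein component that TREM2 binds, was at 13434 ± 7935 CPM over the 14 sums (SD). It was highest in the margin of mouse 32 (30400 CPM), the core of mouse 31 (22842 CPM) and the metastasis of mouse 31 (22179 CPM), and lowest in the margin of mouse 36 (3905 CPM), so that margins spanned the whole range. Tyrobp, the TREM2 adaptor, varied far less, from 1835 to 4649 CPM. The lipid droplet protein gene Plin2 was at 1648 ± 637 CPM (SD, n = 14) and Fabp5, a fatty acid binding protein, at 762 ± 273 CPM (SD, n = 14).

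Lysosomal genes were summed in the metastases, cores and margins. The 51 genes of the list all had UMIs and together took 34011 to 77214 CPM (median 60203). Ctss, Ctsd and Ctsb, genes of the cathepsin proteases, were at 12518 ± 4296, 8178 ± 3832 and 7703 ± 3106 CPM (SD, n = 14), and Psap, the precursor of lipid-degrading saposins, at 4834 ± 2669 CPM. Ctsd was at 12418, 13860, 7836 and 12336 CPM in the 4 margins, at 4267, 9358 and 9328 CPM in the 3 cores and at a median of 4799 CPM in metastases, where mouse 31 reached 14496 CPM and the others 4231 to 7649 CPM. Margins were thus above 6 of 7 metastases. In the pooled Mregs of distal normal tissue (19 cells), Ctsd was at 3298 CPM (2716 to 3969). It was at 1948 CPM in primary tumors (7 cells, 1588 to 2365) and 1049 CPM in relapse-free lungs (6 cells, 657 to 1588), where the label rested on few marker UMIs. These intervals cover counting error only, and the pooled values were not compared with the sums.

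**Figure D2:**
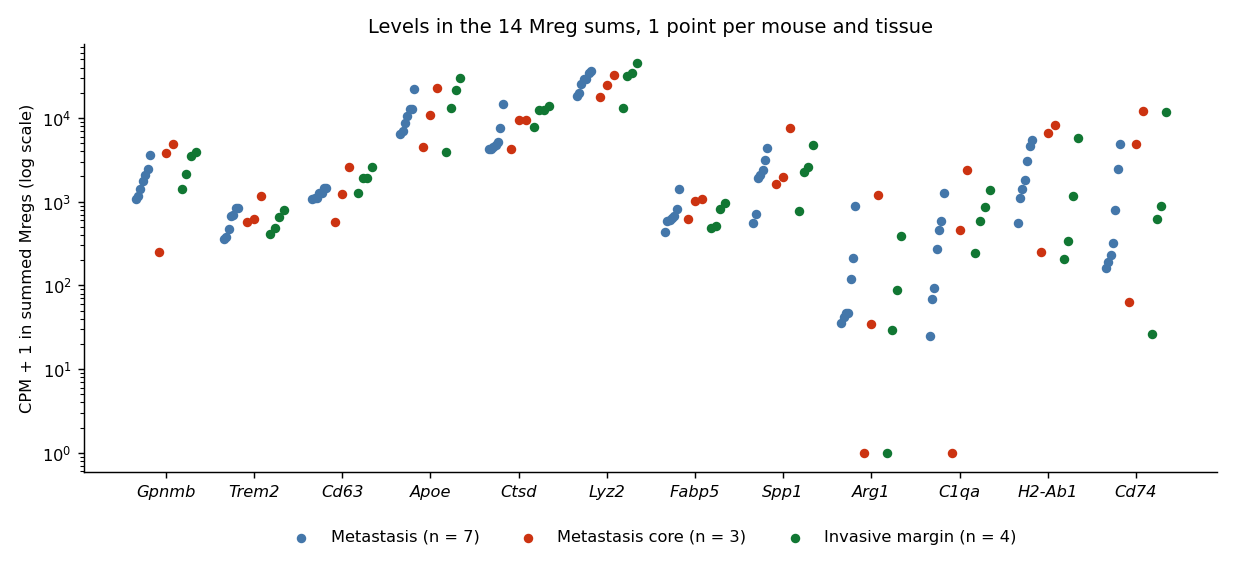
CPM plus 1 of 12 genes on a log axis in the 14 Mreg sums, 1 point per mouse and tissue, for metastases (7), cores (3) and margins (4). Trem2 stays within 362 to 1170 CPM, whereas Cd74 runs from 25.6 to 12119 CPM and Arg1 and C1qa reach 0, which is drawn at 1.

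Spp1, the gene of the secreted matrix protein osteopontin, averaged 2622 ± 1898 CPM (SD, n = 14) and was carried by part of the cells, with UMIs in 44.3% of Mregs against 4.10% of T cells. In the margin of mouse 17, 81.9% of the 204 Spp1 UMIs came from 1 cell. Arg1, the arginine-degrading enzyme arginase 1, was at 223 ± 367 CPM (SD, n = 14). It was at 1192 CPM in the core of mouse 30, 893 CPM in the metastasis of mouse 32 and 392 CPM in the margin of mouse 33, at 0 in the margin of mouse 17 and the core of mouse 31, and between 28.2 and 210 CPM in the other sums. A single cell gave 84.2% of the 19 Arg1 UMIs in the core of mouse 30 and 83.8% of the 148 in the metastasis of mouse 32. Only 10.2% of Mregs carried an Arg1 UMI. In the margin against the core, Arg1 had a log2 fold change of -1.12 ± 1.29 (SE), which was 2.50 without the core of mouse 30. Spp1 likewise went from -0.47 to 0.50. Among other genes of immune suppression, Ido1 and Nos2 were at 0 in all sums, Il10 was detected in 2 sums (at 188 CPM in the core of mouse 30) and Cd274, which encodes PD-L1, averaged 91.4 ± 81.0 CPM (SD, n = 14). Hmox1, the heme-degrading enzyme, was at 1145 ± 821 CPM (SD, n = 14).

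MHC class II genes, which present antigen to CD4 T cells, varied widely between the Mreg sums. Their summed level was 23979 CPM in the core of mouse 31, 22037 CPM in the margin of mouse 33 and 19088 CPM in the core of mouse 36, between 9389 and 9976 CPM in the metastases of mice 33, 26 and 31, and between 652 and 3271 CPM in the other 8 sums. The highest sums were cores and a margin, and low sums occurred in each of the 3 tissues. In the intermediate metastases a single cell gave 54.5% of the H2-Ab1 UMIs (mouse 26), 51.5% of the H2-Ab1 UMIs (mouse 31) and 45.1% of the Cd74 UMIs (mouse 33). Within 1 sequencing batch, they ran from 1468 CPM in the margin of mouse 32 to 23979 CPM in the core of mouse 31. Cd74, the invariant chain, was found in 17 of 17 Mregs of the core of mouse 31, in 61 of 80 in the margin of mouse 33 and in 23 of 30 in the core of mouse 36, and no cell gave more than 18.0% of the Cd74 UMIs there. By contrast, 2 of 12 Mregs of the margin of mouse 17 and 2 of 19 of the metastasis of mouse 30 carried it. T cells of the same samples had Cd74 at 233, 195 and 101 CPM where Mregs had 12119, 11626 and 4863 CPM. B cell markers were at most 97.5 CPM and DC markers at most 8.00 CPM in these 3 sums.

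**Figure D3:**
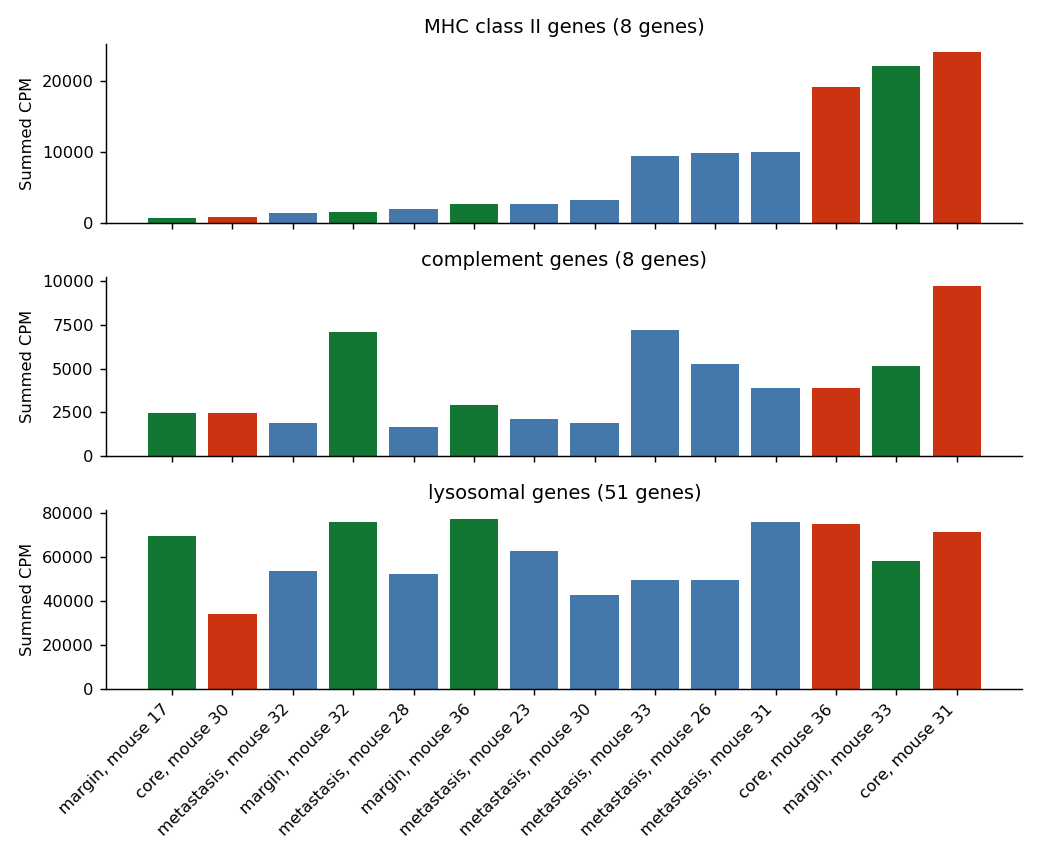
Summed CPM of MHC class II, complement and lysosomal genes in each Mreg sum, ordered by the MHC class II value (blue, metastasis; red, core; green, margin). MHC class II runs from 652 CPM in the margin of mouse 17 to 23979 CPM in the core of mouse 31, while the lysosomal sum stays between 34011 and 77214 CPM.

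The spread between sums was measured by the biological coefficient of variation that edgeR estimated within tissues, over 755 genes with a mean of at least 200 CPM. Its median was 0.471 over all genes, 0.848 over MHC class II genes, 0.716 over complement genes, 0.697 over type I IFN response genes and 0.680 over chemokines. It was 0.478 over lipid-associated macrophage genes, 0.459 over lysosomal genes and 0.406 over the 4 genes of TREM2 signaling and its ligands at this level. Cd74 was the second most variable gene (1.14) and Arg1 the third (1.12), while Trem2 ranked 603rd (0.404) and Tyrobp 677th (0.380). Of other Mreg genes, Cd63 ranked 555th (0.416), but Spp1 113th (0.608), Gpnmb 133rd (0.587) and Apoe 166th (0.563). The complement genes C1qa and C1qb, which opsonize debris, were at 619 ± 666 and 1557 ± 1001 CPM (SD, n = 14). C1qa was at 2372 CPM in the core of mouse 31, 1383 CPM in the margin of mouse 32 and 1255 CPM in the metastasis of mouse 33, and at 0 in the core of mouse 30.

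Expression in the 3 tissues was compared with edgeR (quasi-likelihood F test, Benjamini-Hochberg adjustment) over 1289 genes. None was called in the margin against the core (0% of genes tested), in metastases against the core (0%) or in the margin against metastases (0%), and DESeq2 called none either. At an unadjusted p below 0.05, edgeR counted 36, 57 and 55 genes and DESeq2 46, 69 and 72. Counts were also simulated with the depths of these sums and genes changed by 2 on the log2 scale in cores, and 1099 genes passed the filter. In the margin against the core, edgeR called 89 of the 181 changed genes tested (49.2%). In metastases against the core it called 107 of 181 (59.1%), so that many changes of that size would be missed with such sums. No gene was changed between the margin and metastases, so recovery there was not measured. Values named for these comparisons are therefore descriptions. A sum adds UMIs over cells and is scaled to its own total, and a mix of fewer cells with a gene and less of its RNA per cell cannot be told apart in it.

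In the margin against the core, the genes of lowest p were Rgcc, Elob, Tppp3, Aif1 and Plbd1. Genes picked by low p tend to have separate ranges, and how many of all genes tested had them was not counted. The core sums held 15936 to 90477 UMIs and the margin sums 35427 to 125062. Low levels named for the 3 comparisons, such as Rgcc in cores and Bnip3 in margins, thus rest on few UMIs. The size of such fold changes is uncertain. Rgcc, a regulator of the cell cycle, was at 276 to 565 CPM in the margins and at 0, 32.5 and 99.5 CPM in the cores. Its log2 fold change was 2.63 ± 0.79 (SE), and 2.33 without the core of mouse 30. Elob, which encodes elongin B, was at 466.5 to 593 CPM in margins, 126 to 177 CPM in cores and 295 to 728 CPM in metastases, so that the cores lay below both other tissues (log2 fold change 1.67 ± 0.50, SE, for the margin, and 1.56 without the core of mouse 30). Tppp3, a tubulin-binding protein gene, was at 115 to 1279 CPM in margins and 0 to 130 CPM in cores, with a log2 fold change of 3.20 ± 1.01 (SE), and 2.87 without the core of mouse 30. With the mouse as a block it passed edgeR's test (log2 fold change 4.62, adjusted p = 0.00855), in a fit with 3 residual degrees of freedom in which mouse 36 alone had both a margin and a core sum. Aif1, the gene of the macrophage protein IBA1, was lower in margins (51.8 to 153 CPM) than in cores (199 to 690 CPM), as was Plbd1, a phospholipase B-like gene (0 to 113 against 195 to 628 CPM). Their log2 fold changes were -1.94 ± 0.69 and -2.79 ± 0.99 (SE), and -1.53 and -2.28 without the core of mouse 30.

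In metastases against the core, the lowest p belonged to Elob, Slpi, Malat1, Txn2 and Mir7678. The nuclear RNA Malat1 was at 3600 to 9389 CPM in metastases, 10069 to 20047 CPM in cores and 4681 to 14375 CPM in margins. Its log2 fold change was -1.33 ± 0.39 (SE), and -1.35 without the core of mouse 30. Txn2, the mitochondrial thioredoxin, was at 35.0 to 182 CPM in metastases and 195 to 565 CPM in cores (log2 fold change -1.90 ± 0.56, SE, and -1.60 without the core of mouse 30). Slpi, a protease inhibitor, and Mir7678 were highest in the core of mouse 30, at 879 and 2259 CPM. Without that core the log2 fold change went from -3.35 to -2.10 for Slpi and from -2.92 to 0.02 for Mir7678. In the margin against metastases, they were Bnip3, Gm12164, Lmna, Bst2 and Pdia4. Bnip3, a hypoxia-induced mitophagy gene, was at 0 to 28.2 CPM in margins and 45.5 to 283 CPM in metastases (log2 fold change -3.43 ± 0.98, SE). Bst2, the IFN-induced gene of tetherin, was at 256 to 743 CPM in margins and 140 to 445 CPM in metastases (log2 fold change 1.20 ± 0.40, SE). Gm12164 was at 0 to 128 CPM in margins and 140 to 1499 CPM in metastases, and Pdia4, a protein-folding enzyme of the endoplasmic reticulum, at 34.6 to 423 and 22.7 to 91.0 CPM. Lmna, of the nuclear lamina, was at 128 to 1468 CPM in margins and 45.5 to 516 CPM in metastases.

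Among the gene lists, MHC class II had the largest median differences against the core, and type I IFN response genes the largest in the margin against metastases. Metastases against the core also had medians of 0.48 for inflammatory cytokine genes, -0.41 for complement genes and -0.40 for chemokines. Over all genes tested, the median log2 fold change was 0.08 in the margin against the core, 0.04 in metastases against the core and 0.03 in the margin against metastases. For the 45 lysosomal genes tested the medians were 0.17, -0.18 and 0.35, for the 22 lipid-associated macrophage genes 0.03, -0.27 and 0.33, and for the 13 type I IFN response genes 0.22, -0.14 and 0.55. For the 6 MHC class II genes they were -1.16, -1.32 and 0.11, with 2 of the 3 cores high and that of mouse 30 low. No member of any list was called. Ctsc, an activator of granule proteases, was at 1255, 1040 and 1304 CPM in the cores, above all margins (242 to 736 CPM) and all metastases (500 to 725 CPM). Grn, the gene of the lysosomal protein progranulin, was at 1149 to 2307 CPM in cores and 204 to 1012 CPM in metastases. Its unadjusted edgeR p was also below 0.05 in the margin against metastases, so that a difference from metastases was not particular to cores.

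Mregs were set against Mac Isg20, the macrophage subset next to them for Trem2 and Gpnmb, within the 9 samples of 8 mice that held at least 10 cells of both (7 metastases and the cores of mice 30 and 36). Of 3508 genes with at least 50 UMIs in the sums, 37 (1.05%) were higher and 49 (1.4%) lower in Mregs in every sample, as log2 ratios of CPM plus 10, with a median of -0.06 over all genes. Without the core of mouse 30 the counts were 65 and 65. When 5 cells of each subset sufficed, which admitted 16 samples, they were 8 and 2, the higher genes being Gpnmb, Trem2, Cd63, Apoe, Lamp1, Lyz2 and the near-identical copies Cd63-ps and Lyz1, and the lower ones Ifi27l2a and Gm21987. Since both subsets were defined by clustering their expression, no test was made. Median depths were higher in Mregs in 8 of the 9 samples, for example 2105 against 1114.5 UMIs per cell in the metastasis of mouse 30 and 2877 against 1693 in that of mouse 32.

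Genes higher in Mregs in every sample included some for lipid handling and lysosomes. The mean log2 ratio was 3.38 ± 1.20 for Gpnmb, 2.63 ± 1.51 for Syngr1, a vesicle protein gene, 2.44 ± 0.82 for Apoe and 1.94 ± 0.43 for Ctsd (SD, n = 9). Over the 15 Mac Isg20 sums of at least 10 cells, the lowest level was 0 for Gpnmb, Trem2 and Syngr1. Where a level is 0, the ratio depends on the added 10 CPM. Ctsd was at 4231 to 14496 CPM in Mregs and 706 to 2942 CPM in Mac Isg20, without overlap, and Apoe at 4518 to 22179 CPM and 638 to 6092 CPM. Also higher in 9 of 9 samples were Trem2 (1.69 ± 1.21), Cd63 (1.65 ± 0.74), Ctss (1.60 ± 0.60), Fabp5 (1.44 ± 0.61), Lyz2, the lysozyme gene (1.02 ± 0.46), Psap (1.01 ± 0.55), Plin2 (0.82 ± 0.53), Ctsb (0.81 ± 0.48) and Lamp1 (0.66 ± 0.49). The glutathione transferase genes Mgst1 (2.74 ± 1.76) and Gstm1 (1.91 ± 1.53), the lipid droplet lipase cofactor Abhd5 (2.14 ± 1.13) and Ctnnb1, which encodes beta-catenin (2.02 ± 1.77), were among the largest, together with Ipo5 and Aph1c. Abhd5, Ipo5 and Aph1c had 44, 59 and 63 UMIs in all Mreg sums and 6, 18 and 12 in those of Mac Isg20, with none in 3 to 5 of the 9, so that their ratios depend on the added 10 CPM.

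Genes lower in Mregs in every sample included some chemokines and IFN response genes. Ccl12, a monocyte attractant, was at 0 to 364 CPM in Mregs and 204 to 4797 CPM in Mac Isg20 (mean log2 ratio -5.08 ± 2.35, SD, n = 9). Ccl7 (-2.72 ± 1.72), the platelet factor Pf4 (-2.61 ± 1.23) and Ccl9 (-1.11 ± 0.44) were lower in 9 of 9 samples, and Ccl2 (-2.76 ± 1.85) in 8. Of the IFN-induced genes, Ifitm1 (-3.08 ± 1.61), Ifi203 (-2.55 ± 1.39), Parp12 (-2.30 ± 1.08) and Ifitm3 (-1.07 ± 0.66) were lower in all 9. Ifitm1, Ifi203 and Parp12 had 9, 23 and 10 UMIs in Mregs, with none in 4 to 5 of the 9 sums, as did Ccl12 with 24 UMIs and none in 4, and the size of these ratios depends on the added 10 CPM. Also lower in all 9 were the monocyte genes Plac8 (-2.88 ± 1.47) and Ccr2, the receptor for CCL2 (-1.95 ± 1.37), the polyamine oxidase Smox (-2.43 ± 0.71), the scavenger receptor Msr1 (-1.82 ± 0.90), Ms4a4a (-2.01 ± 1.09), Gm9790 (-2.04 ± 1.63) and the glycolytic genes Pgk1 (-1.37 ± 0.95) and Aldoa (-0.54 ± 0.30). Arg1 was lower in 8 of 9 samples (-2.10 ± 1.86), the exception being the metastasis of mouse 32. Spp1 was lower in 7 of 9 (-0.78 ± 1.40) and Cd74 in 6 (-0.59 ± 0.94).

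**Figure D4:**
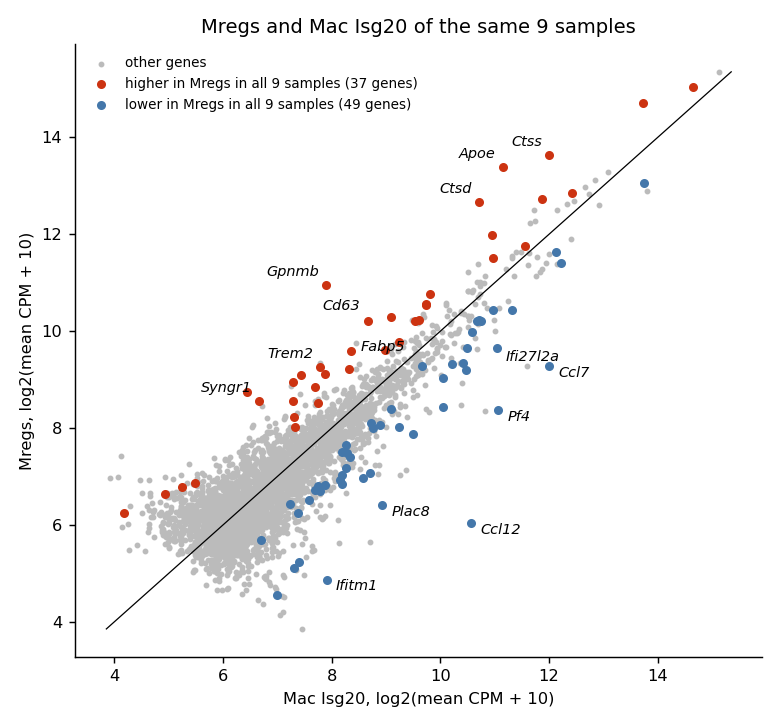
Mean level of each of 3508 genes in Mregs (y) and Mac Isg20 (x) of the same 9 samples, as log2 of mean CPM plus 10, with the line of equal levels. The 37 genes higher in all 9 samples (red) include Gpnmb, Apoe and Ctsd, and the 49 lower (blue) Ccl12, Ccl7 and Pf4.

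By list, 8 of 48 measured lysosomal genes were higher in every sample and none lower, against 1.05% higher and 1.4% lower over all genes. A mean above 0 was found for 43 of 48, against 46.1% of all genes (median 0.44). Lipid-associated macrophage genes had 7 of 22 higher and none lower (median 0.81), and lipid handling genes 3 of 19 higher and 1 lower, Msr1 (median 0.86). These lists share members. Cd63, Ctsb, Ctsd, Ctsl, Ctsz and Lipa are on the lipid-associated and lysosomal lists. Fabp4, Fabp5, Lpl, Lipa, Plin2 and Cd36 are on the lipid-associated and lipid handling lists, and Lipa, Npc1 and Npc2 on the lysosomal and lipid handling lists. The lipid-associated list also holds the markers Gpnmb and Cd63, so that its count in part restates the label. In the other direction, type I IFN response genes had 5 of 36 lower in every sample (median -1.02, 2 with a mean above 0) and chemokines 4 of 17 (median -1.20). All 21 glycolysis and hypoxia genes had a mean below 0 (median -0.65), and 2 were lower in every sample. Mac Isg20 is named for Isg20, a member of the IFN list. The study describes that subset by IFN-I signaling genes, Cxcl1, Cxcl2 and Cxcl3, and glucose catabolism. The values of the IFN, chemokine and glycolysis lists thus in part restate the label of Mac Isg20. Suppressive and checkpoint genes had a median of -0.59, with 4 of 16 at a mean above 0 and none lower or higher in every sample. MHC class II genes had a median of -0.34 with none lower or higher in every sample. Cd74 was high or low in both subsets together, at 4863 and 6947 CPM in Mregs and Mac Isg20 of the core of mouse 36, 4937 and 10136 CPM in the metastasis of mouse 33 and 62.8 and 140 CPM in the core of mouse 30.

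**Figure D5:**
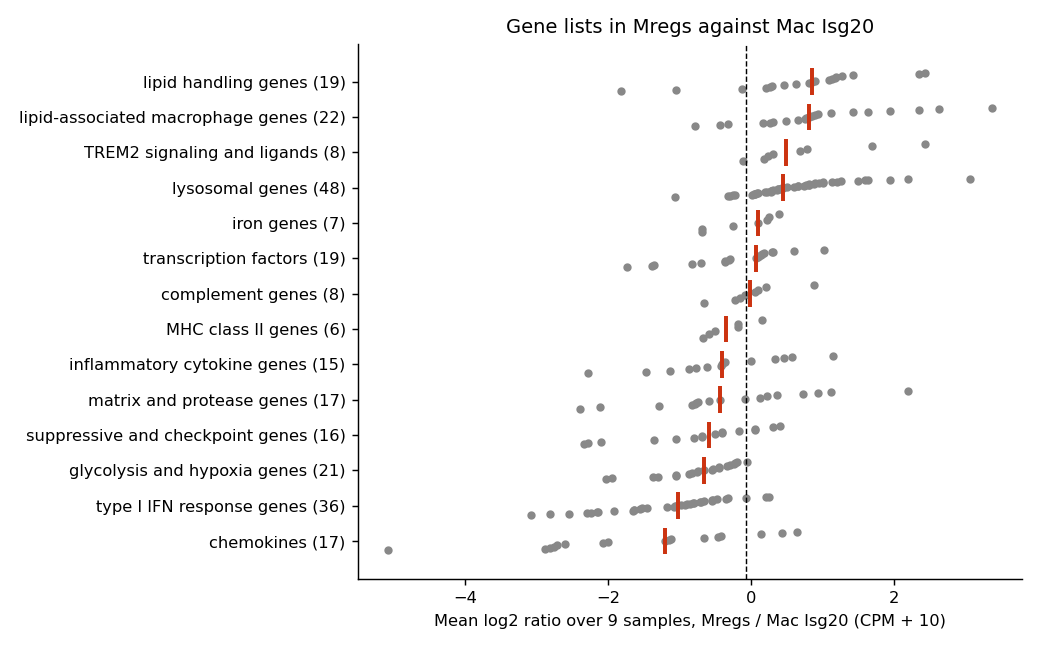
Mean log2 ratio of Mregs to Mac Isg20 over 9 samples for each gene (gray) of lists with at least 5 measured genes (number in parentheses), with the list median (red) and the median of all genes (dashed, -0.06). Lipid handling (0.86) and lipid-associated genes (0.81) lie highest, type I IFN response genes (-1.02) and chemokines (-1.20) lowest.

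Against Mac Cd81, another macrophage subset of the annotation, 3 samples held at least 10 cells of both (the core of mouse 30 and the metastases of mice 26 and 31). Of 1044 genes, 157 (15%) were higher and 217 (20.8%) lower in Mregs in all 3. Without the core of mouse 30, 273 and 352 were alike in both remaining samples. Gpnmb (mean log2 ratio 4.94 ± 1.82, SD, n = 3), Trem2 (4.29 ± 1.42), Hmox1 (4.05 ± 1.23), Spp1 (3.67 ± 0.60), Ctsd (3.07 ± 0.21) and Fabp5 (2.35 ± 0.29) were higher, and H2-Ab1 (-3.03 ± 2.02), C1qa (-2.82 ± 2.97) and Cd74 (-2.18 ± 1.63) lower. Mac Cd81 had no Gpnmb UMI in the core of mouse 30 and the metastasis of mouse 26 and no Trem2 UMI in the former, so that these ratios depend on the added 10 CPM. Without the core of mouse 30, where C1qa had no UMI in Mregs, the means of the higher genes were 5.05, 3.51, 4.68, 3.32, 3.17 and 2.51, but those of H2-Ab1, C1qa and Cd74 shrank to -1.87, -1.13 and -1.31. All 6 measured MHC class II genes were lower (median -2.43, and -2.06 without that core), chemokines had 2 of 13 higher and 2 lower (median 0.18, and -0.20 without that core), 13 of 20 lipid-associated genes were higher and none lower (median 1.84), 16 of 40 lysosomal genes were higher and 3 lower (median 0.69), and 4 of 5 iron genes were higher (median 1.21), against a median of -0.07 over all genes. Of 12 measured type I IFN response genes, 4 were lower and none higher in all 3 samples (median -1.11, and -1.52 without the core of mouse 30). Spp1 was thus higher in Mregs than in Mac Cd81 but not than in Mac Isg20. The same held for Hmox1, with a mean of 1145 CPM in Mregs and 1986 CPM in Mac Isg20 over all sums of at least 10 cells. Iron genes had a median of 0.10 against Mac Isg20. By contrast, Gpnmb, Trem2, Ctsd, Apoe and Fabp5 were higher than in both in every sample with at least 10 cells. For Ctsd and Fabp5 this did not extend to all 16 samples of at least 5 cells. The order for Gpnmb was Mregs, then Mac Isg20 (204 ± 258 CPM, SD, n = 15), and for Apoe Mregs, then Mac Cd81 (7057 ± 5791 CPM, SD, n = 9), whose spread overlapped that of Mregs.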

How the data were processed

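Libraries were made from sorted single cells in plates, each captured mRNA being tagged with a UMI. For each of 148 plates the authors deposited raw UMI counts of 52634 gene rows per well, not normalized, with a cell table giving mouse, tissue, batch and subpopulation. Per the study's methods, reads were mapped to mm10 with HISAT, reads with multiple positions were excluded, reads were assigned to exons and cells under 500 UMIs were discarded. Exclusion of multiply mapped reads lowers genes with near-identical copies. 24020 annotated wells were read.

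Mregs were the wells annotated Mac_Gpnmb, with no new clustering. Their UMIs were summed per mouse and tissue (at least 10 cells), 92 spike-in rows left out. Sums, and not cells, were the replicates. The members and gene lists were chosen with earlier results of these data known. Tissues were compared in edgeR 4.0.16 under R 4.3.3 (TMM scaling, filterByExpr, no covariate, the quasi-likelihood F test, and a call wherever the Benjamini-Hochberg value was under 0.05) in 1 fit over metastases, cores and margins. DESeq2 1.42.0, other filters, a batch term, the mouse as replicate block, 1000 UMIs per cell, 5 cells per sum and leaving out each sum were alternatives. The block pairs tissues of the same animal by design. Deviations from tissue means correlated at 0.0843 to 0.379 within mice (mean 0.215). Between mice the mean was 0.209 in the same batch and -0.0569 in different batches. Within mice the values were 0.379, 0.268 and 0.234 where both sums shared a batch, and 0.113 and 0.0843 where they did not.

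Named genes were the 5 of lowest p per comparison, where fewer than 5 were called, 12 marker genes, the 10 largest ratios in each direction among genes alike in every sample against Mac Isg20, and list members of highest level. Genes outside this rule, such as Il10, Cd274, Ccl2, Ccr2, Msr1, Pgk1, Ctsc and Grn, were chosen after their values were seen. Tissue frequencies were compared by exact sign flips within mice. Log2 ratios between subsets used CPM plus 10. Promoters came from RefSeq. Fits were tested on simulated data. Python 3.11.15 was used for frequencies and ratios (scipy 1.17.1, pandas 2.3.3) and for plots (matplotlib 3.10.9). Within a tissue, replicates are separate mice.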

Additional observations from a re-analysis of the deposited data

Results flagged for a closer look

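Of 37 groups of 4 or more sums tested for a value far from the others, 6 held one. Chance would give about 1 in 20 only for normally distributed values. Whether CPM follow that distribution was not tested, so the count is not set against chance. In metastases, mouse 31 stood above the other 6 sums for Fabp5 (1412 CPM), Apoe (22179 CPM) and Ctsd (14496 CPM). Its Mregs were also the deepest, with a median of 6626 UMIs per cell, and its part in these levels was not tested. Arg1 stood out in the metastasis of mouse 32 (893 CPM), where 1 cell gave 83.8% of its UMIs. In margins, Cd74 stood out in mouse 33 (11626 CPM) and Il7r, the interleukin-7 receptor gene, in mouse 36 (380 CPM). No difference between effects in 2 groups was tested.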

How the results depend on the processing

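The mouse as a replicate block raised the calls in the margin against the core from 0 to 1 (Tppp3), and dropping the filter on low counts raised those in metastases against the core from 0 to 1 (Cd74, lower in metastases, edgeR adjusted p = 0.0236). The cause was not tested. The counts stayed at 0 in all 3 comparisons under size factors as in DESeq2, DESeq2 itself, the batch term, cells of at least 1000 UMIs, sums of at least 5 cells and without each sum in turn. The block changed no other call. The 86 genes alike in every sample against Mac Isg20 became 10 over 16 samples with at least 5 cells of both and 97 to 130 without 1 sample each, the most without the core of mouse 30. Against Mac Cd81, the 157 genes higher and 217 lower in all 3 samples became 273 and 352 over the 2 samples without the core of mouse 30, an alternative chosen after seeing the data. Fewer or more samples change such a count by construction. The difference between metastases and distal normal tissue stayed between 3.03 and 3.74 percentage points of immune cells and between 18.0 and 28.1 points of macrophages without 1 mouse each. The difference between margin and core ran from 17.6 to 36.4 points of macrophages and from -1.74 to 12.0 points of immune cells, below 0 only without mouse 32. Without pairing (no replicate block) it was 34.9 points of macrophages (permutation p = 0.0113) and 14.3 points of immune cells (p = 0.172, permutation). The unpaired difference of metastases and distal normal tissue was 12.3 points of macrophages (permutation p = 0.109). These unpaired tests took samples of the same mouse as independent, and their p was not adjusted. At least 10 cells per sum and 15936 UMIs in the shallowest limit what low genes can show.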
